A study of Mus musculus with 2 samples.

Results

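The genes of cytosolic translation initiation and elongation factors were examined in long-read RNA-seq of mouse gastrocnemius, the large calf muscle. Members were taken by name: every annotated gene with reads whose symbol begins with Eif and a digit, or with Eef1 or Eef2, leaving out Eif2s3x, Eif2s3y and symbols that mark a pseudogene. This gave 63 genes of 14900 annotated genes with reads, 62 in each library and 61 in both. There was 1 group of 2 libraries, labelled biological replicates 2 and 1, from male B6CASTF1/J mice (hybrid offspring of C57BL/6J and CAST/EiJ parents) aged 18 to 20 months. No treatment is labelled, and 2 µg of total RNA went into each library, together with SIRV and ERCC spike-in RNAs. The labels name separate biosamples and 1 shared donor record, so whether the libraries come from separate mice is not given, and every test below compares these 2 libraries and not conditions.

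Translation of most mRNAs begins when eIF4E binds the cap, eIF4G holds it to the RNA helicase eIF4A, and eIF3 joins this assembly to the small ribosomal subunit. eIF2 carries the initiator tRNA and is recharged by eIF2B, eIF1, eIF1A and eIF5 police the start codon, and eIF5B joins the large subunit. In elongation eEF1A delivers aminoacyl-tRNAs, eEF1B recharges it and eEF2 moves the ribosome on. Adult muscle is known for replacing eEF1A1 with its paralogue eEF1A2, and for controlling translation through the eIF4E-binding proteins below mTOR and through kinases that phosphorylate eIF2.

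The eEF1A coding sequences show how far reads of the paralogues can be told apart. The coding sequence of Eef1a2 has 1389 bases and that of Eef1a1 has 1386, and 80.1% of aligned bases are identical. The first 60 coding bases are given from the annotated transcripts, with the 11 bases that differ in capitals.
Eef1a2 (chromosome 2), coding bases 1 to 60: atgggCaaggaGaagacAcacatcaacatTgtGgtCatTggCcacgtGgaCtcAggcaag
Eef1a1 (chromosome 9), coding bases 1 to 60: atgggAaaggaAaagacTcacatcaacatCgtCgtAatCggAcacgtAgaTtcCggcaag

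A further set of sequences belongs to the splice choices described later. Coordinates are mm10, and sequences are from the GENCODE M21 transcripts, 5′ to 3′ on the strand of the gene. At 4 introns the spliced mRNA either kept or lost 3 bases. For 3 of them, each of the bases CAG, these are shown in capitals between flanking exon bases.
Eif4g1 with extra bases, chr16:20681734-20681736: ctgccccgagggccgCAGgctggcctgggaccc
Eif4g1 without extra bases, chr16:20681734-20681736: ctgccccgagggccggctggcctgggaccc
Eif4a2 with extra bases, chr16:23108585-23108587: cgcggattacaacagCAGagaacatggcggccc
Eif4a2 without extra bases, chr16:23108585-23108587: cgcggattacaacagagaacatggcggccc
Eif4g3 with extra bases, chr4:138120346-138120348: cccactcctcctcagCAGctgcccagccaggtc
Eif4g3 without extra bases, chr4:138120346-138120348: cccactcctcctcagctgcccagccaggtc

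Whole coding exons were also used or skipped. The 6 printed here are annotated as coding and have lengths divisible by 3, and they were chosen to run from mostly kept to mostly skipped.
Eif4g2 exon of 114 nt, chr7:111076280-111076393, minus strand: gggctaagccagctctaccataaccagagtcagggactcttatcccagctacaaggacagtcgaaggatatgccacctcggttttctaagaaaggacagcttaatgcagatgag
Eif4enif1 exon of 72 nt, chr11:3233988-3234059, plus strand: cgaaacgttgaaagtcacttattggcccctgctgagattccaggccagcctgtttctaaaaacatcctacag
Eef2k exon of 135 nt, chr7:120891596-120891730, plus strand: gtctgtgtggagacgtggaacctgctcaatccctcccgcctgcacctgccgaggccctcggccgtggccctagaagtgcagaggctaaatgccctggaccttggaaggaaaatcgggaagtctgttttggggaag
Eef1d exon of 57 nt, chr15:75897226-75897282, minus strand: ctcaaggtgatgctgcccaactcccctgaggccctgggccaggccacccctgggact
Eif4g3 exon of 33 nt, chr4:138087533-138087565, plus strand: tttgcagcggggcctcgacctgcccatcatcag
Eif4h exon of 60 nt, chr5:134624441-134624500, minus strand: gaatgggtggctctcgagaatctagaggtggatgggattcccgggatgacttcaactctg

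Replicate 2 held 1173233 reads and replicate 1 held 1509380. ERCC spike-ins took 0.590% in replicate 2 and 2.71% in replicate 1 of these reads. All 6 fast and general muscle fibre markers were read, with a summed 127700 CPM in replicate 2 against 156900 CPM in replicate 1 (CPM, reads per 1000000 reads of the library), and 2 of the 6 were lower in replicate 2. All 5 slow fibre markers were higher in replicate 2, with a summed 3606 CPM in replicate 2 against 215 CPM in replicate 1. Markers of endothelium (3 of 6 tested, a summed 110.0 CPM in replicate 2 against 45.05 CPM in replicate 1) and of smooth muscle and pericytes (3 of 5, 403 CPM in replicate 2 against 207 CPM in replicate 1) were higher as well, those of fibroblasts (6), blood (4) and satellite cells (1) had no call, and 1 of 2 nerve markers was higher and 1 of 3 immune markers lower. Of all markers, Snap25 of neurons alone was at 0 in both libraries. In bulk tissue, fewer cells of a type and less RNA per cell cannot be told apart.

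Translation factor genes together took 0.715% of reads in replicate 2 (8385 reads) and 0.6825% in replicate 1 (10301 reads), a mean of 0.699% ± 0.0228 (SD, n = 2). Each long read is 1 cDNA copy, so CPM is not divided by transcript length, although duplicate copies of a molecule cannot be recognised. The lengths given below are those of annotated transcripts. The 10 most read genes held 56.8% of these reads in replicate 2 and 56.3% in replicate 1. They were Eif1, Eif4g2, Eef2, Eif5a, Eif4g1, Eif2s2, Eef1g, Eif4a2, Eif5 and Eef1a2, with no subunit of eIF3 or eIF2B among them. At the other end, 16 genes had fewer than 100 reads over both libraries. Eef1akmt3, Eif4e1b, Eif4ebp3 and the lincRNA gene Eif2c5, which match the name rule in the annotation, had 0 reads in both libraries, which allows a level of up to 2.56 CPM for replicate 2 and 1.99 CPM for replicate 1 (3 reads).

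**Figure D1:**
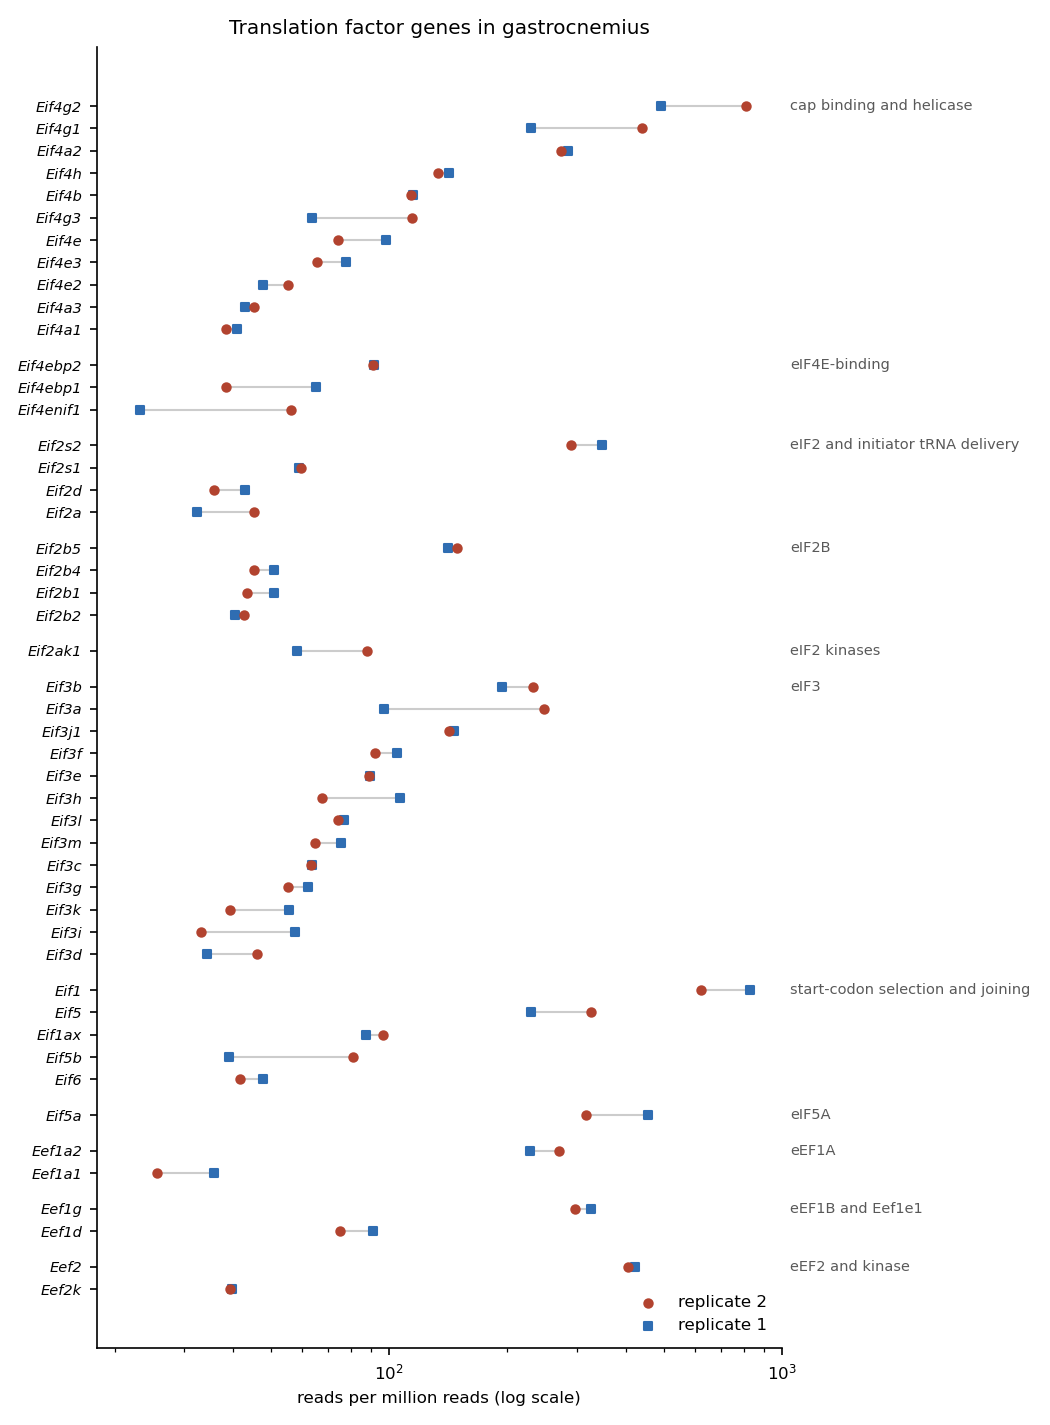
CPM of translation factor genes that reached 100 reads, summed over both libraries, and of Eef1a1, by role, on a log axis (circles, replicate 2; squares, replicate 1). Eif1 and Eif4g2 stand highest, and the widest gaps between the libraries on this log axis are at Eif4enif1, Eif3a, Eif5b and Eif4g1.

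The cap-binding and helicase genes were led by Eif4g2, whose product lacks the eIF4E-binding part of eIF4G and serves initiation that does not rely on it. Eif4g2 had 811 CPM (951 reads) in replicate 2 against 492 CPM (742 reads) in replicate 1, the highest level of any factor in replicate 2. Eif4g1, the scaffold of the cap-binding complex, had 439.8 CPM (516 reads) in replicate 2 against 229.9 CPM (347 reads) in replicate 1. Eif4g3, its paralogue, had 114 CPM (134 reads) in replicate 2 against 63.6 CPM (96 reads) in replicate 1. All 3 stood higher in replicate 2, by log2 ratios of 0.72, 0.93 and 0.83 (Fisher's exact test with Benjamini-Hochberg adjustment over 9032 genes, adjusted p = 9.83e-23, 2.30e-19 and 1.39e-04), but none reached the 2-fold minimum of a call. Eif4g1 did reach it, and was called higher, with annotated transcripts only (log2 ratio 1.47), without incomplete and genomic reads (1.24) and with the deeper library thinned to the depth of the other (1.00). After each ratio was set against that of genes with similar length, Eif4g2 turned to -0.02, Eif4g1 stood at 0.29 and Eif4g3 at 0.23. Without incomplete and genomic reads Eif4g3 no longer passed Fisher's exact test (adjusted p = 0.235).

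The helicase gene most read was Eif4a2, with 274.5 CPM (322 reads) in replicate 2 against 285.5 CPM (431 reads) in replicate 1. Eif4a1, the paralogue that dominates in many growing cells, had 38.4 CPM (45 reads) in replicate 2 against 41.1 CPM (62 reads) in replicate 1. Eif4a3, which marks exon junctions after splicing rather than serving initiation, had 45.2 CPM in replicate 2 against 43.1 CPM in replicate 1. None of the 3 passed the test between the libraries. The cofactors that stimulate eIF4A were read at middle levels: Eif4h had 133 CPM in replicate 2 against 142 CPM in replicate 1, and Eif4b had 113 CPM in replicate 2 against 115 CPM in replicate 1. The cap-binding protein genes were close to each other, with 74.15 CPM in replicate 2 against 98.05 CPM in replicate 1 for Eif4e, 65.6 CPM in replicate 2 against 77.5 CPM in replicate 1 for Eif4e3 and 55.4 CPM in replicate 2 against 47.7 CPM in replicate 1 for Eif4e2, whose product binds the cap without recruiting eIF4G. Their adjusted p-values by the same test were 0.140, 0.516 and 0.630.

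Among genes that bind eIF4E and hold it back, Eif4ebp2 had 91.2 CPM (107 reads) in replicate 2 against 91.4 CPM (138 reads) in replicate 1 and Eif4ebp1 had 38.4 CPM (45 reads) in replicate 2 against 64.9 CPM (98 reads) in replicate 1. Eif4ebp1 passed the adjusted p by Fisher's exact test (log2 ratio -0.74, adjusted p = 0.0190) but not the fold minimum, and did not pass with annotated transcripts only (adjusted p = 0.0787). Eif4enif1, which encodes the protein that carries eIF4E into the nucleus and represses bound mRNAs, had 56.25 CPM (66 reads) in replicate 2 against 23.2 CPM (35 reads) in replicate 1. It was called higher in replicate 2, with a log2 ratio of 1.24 and an adjusted p of 2.39e-04.

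Of the factors that deliver the initiator tRNA, Eif2s2, the beta subunit of eIF2, had 291 CPM (341 reads) in replicate 2 against 349 CPM (527 reads) in replicate 1, against 59.7 CPM (70 reads) in replicate 2 against 59.0 CPM (89 reads) in replicate 1 for Eif2s1, the alpha subunit that stress kinases phosphorylate. The annotated transcripts are 2542 nt for Eif2s2-201 and 3405 nt for Eif2s1-201. Eif2a and Eif2d, which encode factors able to bring initiator tRNA without eIF2, had 45.2 CPM in replicate 2 against 32.5 CPM in replicate 1 and 35.8 CPM in replicate 2 against 43.1 CPM in replicate 1. Eif2s2 alone of these 4 passed the adjusted p (log2 ratio -0.26, Fisher's exact test, adjusted p = 0.0417), at a change of less than 2-fold. It did not pass with no read minimum (adjusted p = 0.0677), with the deeper library thinned (0.0636), with annotated transcripts only (0.417) or without incomplete and genomic reads (0.0562).

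The 5 eIF2B subunit genes spanned a wide range, from a mean of 19.45 CPM for Eif2b3 to 145 CPM for Eif2b5, the catalytic epsilon subunit. Eif2b5 had 149 CPM (175 reads) in replicate 2 against 141 CPM (213 reads) in replicate 1. Its partner in the catalytic part, Eif2b3 (the gamma subunit), had 11.1 CPM (13 reads) in replicate 2 against 27.8 CPM (42 reads) in replicate 1, and was the 1 translation factor gene called lower in replicate 2 (log2 ratio -1.25, Fisher's exact test, adjusted p = 0.0164). The regulatory subunits that sense phosphorylated eIF2 lay close together: Eif2b1 had 43.5 CPM in replicate 2 against 51.0 CPM in replicate 1, Eif2b4 had 45.2 CPM in replicate 2 against 51.0 CPM in replicate 1, and Eif2b2 had 42.6 CPM in replicate 2 against 40.4 CPM in replicate 1. Their log2 ratios were within -0.23 and 0.07, and no eIF2B gene other than Eif2b3 was called.

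Among the kinases that phosphorylate eIF2, Eif2ak1, the heme-regulated kinase, had 87.8 CPM (103 reads) in replicate 2 against 58.3 CPM (88 reads) in replicate 1 and passed the adjusted p (log2 ratio 0.58, Fisher's exact test, adjusted p = 0.0295) without reaching 2-fold. Under TMM scaling and DESeq2 size factors its log2 ratios of 0.39 and 0.38 did not pass (adjusted p = 0.217 for each), and centring on transcript length left 0.08. Eif2ak4, which senses uncharged tRNA, had 6 reads in replicate 2 and 4 in replicate 1. Eif2ak3, the kinase of endoplasmic reticulum stress, had 4 reads in replicate 2 and 1 in replicate 1. Eif2ak2, which senses double-stranded RNA, had 0 reads in replicate 2 and 1 in replicate 1, under the floor in both.

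The eIF3 complex bridges the cap-binding factors and the small ribosomal subunit. Its genes were read at a mean of 40.2 to 213 CPM, leaving aside Eif3j2, which had 2 reads in replicate 2 and 3 in replicate 1. Eif3a, the largest subunit and scaffold of the complex, had 247 CPM (290 reads) in replicate 2 against 96.7 CPM (146 reads) in replicate 1, the widest ratio between the libraries of any translation factor gene that reached 100 reads. It was called higher in replicate 2, with a log2 ratio of 1.34 and an adjusted p of 1.03e-19 by Fisher's exact test. The other scaffold subunits had no call: Eif3b had 233 CPM in replicate 2 against 194 CPM in replicate 1, and Eif3c had 63.1 CPM in replicate 2 against 63.6 CPM in replicate 1.

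Of the remaining eIF3 genes, Eif3j1, whose loosely bound product sits near the mRNA channel, had 142 CPM in replicate 2 against 146 CPM in replicate 1. Eif3h had 67.3 CPM (79 reads) in replicate 2 against 107 CPM (161 reads) in replicate 1 and Eif3i had 33.2 CPM (39 reads) in replicate 2 against 57.6 CPM (87 reads) in replicate 1. Both passed the adjusted p by Fisher's exact test in the direction of replicate 1 (log2 ratio -0.66, adjusted p = 0.00555 for Eif3h, and -0.78, adjusted p = 0.0229 for Eif3i). Eif3i no longer passed with annotated transcripts only (adjusted p = 0.124) or without incomplete and genomic reads (adjusted p = 0.080). Eif3f, which in mouse muscle is known as a target of an atrophy-linked ubiquitin ligase, had 92.05 CPM in replicate 2 against 105 CPM in replicate 1, and Eif3e had 88.6 CPM in replicate 2 against 89.4 CPM in replicate 1. Eif3l, Eif3m and Eif3g had 74.15 CPM in replicate 2 against 76.85 CPM in replicate 1, 64.8 CPM in replicate 2 against 75.5 CPM in replicate 1 and 55.4 CPM in replicate 2 against 62.3 CPM in replicate 1. Eif3k had 39.2 CPM in replicate 2 against 55.65 CPM in replicate 1. The lowest mean level, Eif3j2 aside, was that of Eif3d, a subunit that can itself bind the cap, with 46.0 CPM in replicate 2 against 34.45 CPM in replicate 1. Over the complex, 1 of 13 genes tested was called, beside 10.3% of all genes tested, and the log2 ratios of single subunits ran from -0.78 to 1.34, with a median of -0.05.

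Eif1, which keeps the scanning ribosome open until a start codon is found, had the highest mean level of all translation factors, 726 ± 144 CPM (SD, n = 2). Its values were 624 CPM (732 reads) in replicate 2 against 827.5 CPM (1249 reads) in replicate 1, lower in replicate 2 (log2 ratio -0.41, Fisher's exact test, adjusted p = 2.41e-08) by less than 2-fold. Eif5, which triggers hydrolysis of GTP on eIF2 at the start codon, had 327 CPM (384 reads) in replicate 2 against 229 CPM (346 reads) in replicate 1, with the opposite sign (log2 ratio 0.51, adjusted p = 2.64e-05), which centring on transcript length left at 0.03. Eif1ax, which works with eIF1 in scanning, had 96.3 CPM in replicate 2 against 87.45 CPM in replicate 1, and Eif6, which keeps the large subunit from joining early, had 41.8 CPM in replicate 2 against 47.7 CPM in replicate 1. Eif5b, which joins the ribosomal subunits, had 81.0 CPM (95 reads) in replicate 2 against 39.1 CPM (59 reads) in replicate 1 and was called higher in replicate 2 (log2 ratio 1.03, Fisher's exact test, adjusted p = 1.28e-04). The minor genes Eif1b, Eif1ad and Eif1a had means of 25.2, 19.0 and 8.99 CPM.

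Eif5a encodes a factor that carries the modified lysine hypusine and rescues ribosomes stalled at prolines. It had 317 CPM (372 reads) in replicate 2 against 455 CPM (687 reads) in replicate 1 and was lower in replicate 2 by less than 2-fold (log2 ratio -0.52, Fisher's exact test, adjusted p = 2.96e-07). Its paralogue Eif5a2 had 1 read in replicate 2 and 0 in replicate 1.

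In elongation, Eef2 was the most read gene, with 405 CPM (475 reads) in replicate 2 against 421 CPM (636 reads) in replicate 1, a log2 ratio of -0.06. Eef2k, the kinase that switches eEF2 off, had 39.2 CPM in replicate 2 against 39.75 CPM in replicate 1. Eef1a2 had 271 CPM (318 reads) in replicate 2 against 228 CPM (344 reads) in replicate 1, against 25.6 CPM (30 reads) in replicate 2 against 35.8 CPM (54 reads) in replicate 1 for Eef1a1. Neither passed the test between the libraries (adjusted p = 0.105 for Eef1a2 and 0.352 for Eef1a1, Fisher's exact test). The eEF1B subunits, which return eEF1A to its active form, were unequal: Eef1g had 297.5 CPM (349 reads) in replicate 2 against 327 CPM (493 reads) in replicate 1, Eef1d had 75.0 CPM in replicate 2 against 90.8 CPM in replicate 1, and Eef1b2 had 28.1 CPM in replicate 2 against 41.7 CPM in replicate 1. Their annotated transcripts are of like length, 1864 nt for Eef1g-201, 2312 nt for Eef1d-218 and 1939 nt for Eef1b2-204. Eef1e1, named with this group but known from the multi-tRNA-synthetase complex, had 9 reads in replicate 2 and 23 in replicate 1.

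The lysine methyltransferases that modify elongation factors were scarce. Eef1akmt1 had 16.2 CPM (19 reads) in replicate 2 against 32.5 CPM (49 reads) in replicate 1, with a log2 ratio of -0.96 that passed the adjusted p (0.0470, Fisher's exact test) just short of 2-fold. This ratio turned to 0.03 with annotated transcripts only (adjusted p = 1), and the test was not passed with no read minimum (adjusted p = 0.0764) or without incomplete and genomic reads (adjusted p = 0.50). Eef2kmt had 11 reads in replicate 2 and 24 in replicate 1. Eef1akmt2 had 6 reads in each library, and Eef1akmt4 had 4 in replicate 2 and 3 in replicate 1.

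Over all members, 58 had at least 10 reads over both libraries and were tested. Of these 3 were called higher in replicate 2 (Eif3a, Eif4enif1 and Eif5b), where 8.24% of all genes tested were, and 1 was called lower (Eif2b3), where 2.04% of all genes were. In either direction 4 of 58 were called, beside 10.3% of all genes. The call of Eif5b was lost under TMM scaling (log2 ratio 0.84) and DESeq2 size factors (0.83), and with a pseudocount of 5 CPM (0.96). With annotated transcripts only, Eif4enif1 (1.46, adjusted p = 0.0672) and Eif2b3 (-1.23, adjusted p = 0.0583) no longer passed Fisher's exact test. The adjusted p alone, at any fold, was passed by 8 members in each direction, 13.8% each, where 14.8% of all genes passed it in the direction of replicate 2 and 6.57% in that of replicate 1. The median log2 ratio was -0.04 over the members and 0.19 over all genes tested. Below 0 lay 35 of 58 members, beside 3491 of 9032 genes. The slow fibre markers, the spike-in share and other cell type markers given above also differed between these libraries. Their part in the calls was not tested.

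Transcript length ran with the ratio. The 12 members with transcripts of up to 1500 nt had a median log2 ratio of -0.40, the 20 up to 2500 nt one of -0.12, the 14 up to 4000 nt one of 0.00, and the 12 above 4000 nt one of 0.65. Across all genes the same ranges gave -0.33, 0.00, 0.30 and 0.60. Spearman's rho of the ratio with length was 0.60 over 58 members and 0.49 over 8625 genes, as a description, since all points share the same 2 libraries. When each ratio was centred on genes of like length, Eif3a, Eif4enif1 and Eif5b stood at 0.73, 0.85 and 0.31 and none was called higher, beside 3.98% of all genes. Eif2b3 stood at -1.21 and was still called, beside 1.52% of all genes lower and 5.5% in either direction. A long transcript that did not stand higher in replicate 2 was Eif3j1-201 (5413 nt), whose gene had a log2 ratio of -0.03.

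**Figure D2:**
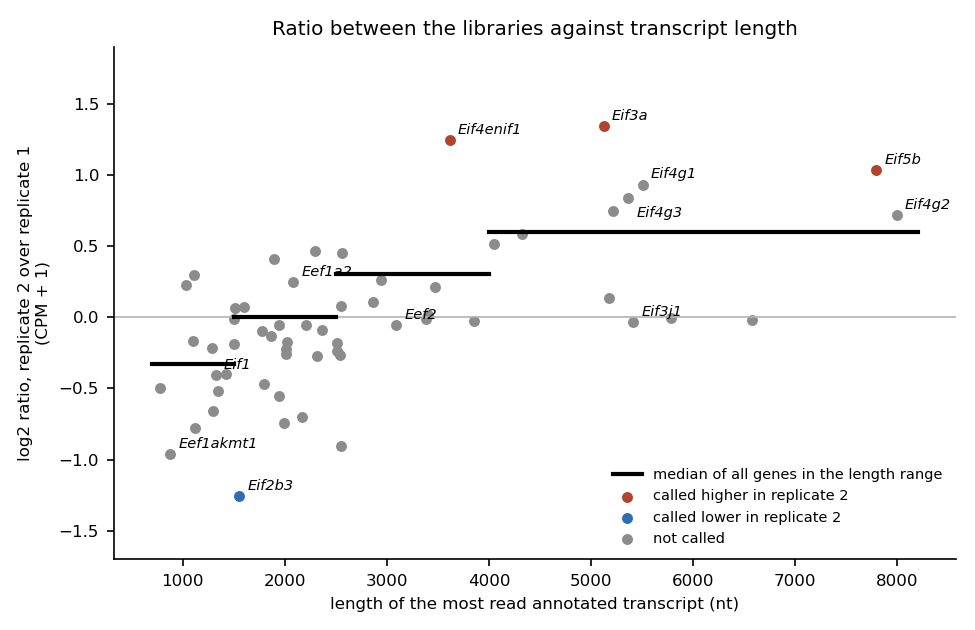
Log2 ratio, computed on CPM + 1, of replicate 2 over replicate 1 for the 58 translation factor genes tested, against the length in nucleotides of the most read annotated transcript. Black bars give the median of all genes in each length range, -0.33, 0.00, 0.30 and 0.60 from short to long, and the genes called higher, Eif3a, Eif4enif1 and Eif5b, have transcripts above 2500 nt, while Eif2b3, called lower, has one of 1555 nt.

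Within families of paralogues, 1 gene usually held most reads, and which one it was held in both libraries. Eef1a2 took 91.4% in replicate 2 (87.9 to 94.1) and 86.4% in replicate 1 (82.7 to 89.6) of eEF1A reads, with exact 95% Clopper-Pearson intervals in parentheses here and below, a mean of 88.9% ± 3.50 (SD, n = 2). The transcripts, 2084 nt for Eef1a2-201 and 1794 nt for Eef1a1-201, are close in length, and 1 pseudogene close to Eef1a1 held 0 reads in replicate 2 and 1 in replicate 1. Eif4a2 took 76.7% in replicate 2 (72.3 to 80.6) and 77.2% in replicate 1 (73.5 to 80.7) of eIF4A reads, and Eif4a1 took 10.7% in replicate 2 and 11.1% in replicate 1. Eif4a1 is uncertain, because the processed pseudogene Eif4a-ps4, 99.9% identical to it over 1218 nt, held 33 reads in replicate 2 and 41 in replicate 1, beside 45 and 62 reads of Eif4a1 itself. With those reads added Eif4a2 would still hold most of the family.

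Eif1 took 95.8% in replicate 2 and 97.3% in replicate 1 of reads over Eif1b, Eif1ax took 91.1% in replicate 2 and 91.0% in replicate 1 over Eif1a, Eif5a took 99.7% in replicate 2 and 100% in replicate 1 over Eif5a2, and Eif3j1 took 98.8% in replicate 2 and 98.65% in replicate 1 over Eif3j2. Eif2ak1 held 91.15% in replicate 2 (84.3 to 95.7) and 93.6% in replicate 1 (86.6 to 97.6) of reads on the 4 eIF2 kinase genes. In these families a single gene thus supplied over 9 in 10 reads. The eIF4E family was split: Eif4e held 38.0% in replicate 2 (31.7 to 44.6) and 43.9% in replicate 1 (38.5 to 49.4), Eif4e3 33.6% in replicate 2 and 34.7% in replicate 1, and Eif4e2 28.4% in replicate 2 and 21.4% in replicate 1. Of eIF4G reads, Eif4g2 held 59.4% in replicate 2 (56.95 to 61.8) and 62.6% in replicate 1 (59.8 to 65.4), Eif4g1 32.2% in replicate 2 and 29.3% in replicate 1, and Eif4g3 8.37% in replicate 2 and 8.10% in replicate 1. These shares depend on the read classes counted: with annotated transcripts only, Eif4g2 held a mean of 95.8%, Eif4g1 3.56% and Eif4g3 0.614%, and without incomplete and genomic reads Eif4g2 held 79.6%, Eif4g1 16.95% and Eif4g3 3.49%. The share of Eif4ebp1 among 4E-BP reads was 29.6% in replicate 2 (22.5 to 37.5) and 41.5% in replicate 1 (35.2 to 48.1), and its intervals in the libraries overlap. Most Eif4ebp2 reads are unspliced models, described below, and with annotated transcripts only Eif4ebp1 held a mean of 75.8%, so the order of the family turned.

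**Figure D3:**
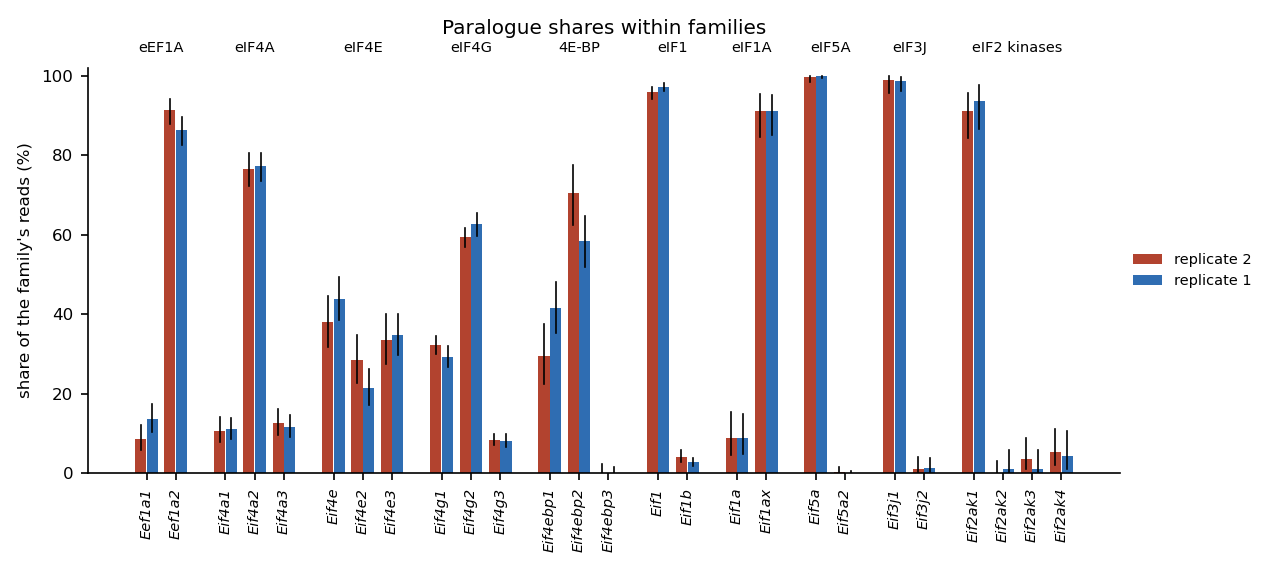
Share of each paralogue in the reads of its family, in percent (bars: replicate 2 left, replicate 1 right; lines: exact 95% Clopper-Pearson intervals, which cover counting error only). Eef1a2, Eif4a2, Eif1, Eif1ax, Eif5a, Eif3j1 and Eif2ak1 each hold over 70% of their family in both libraries, while the eIF4E, eIF4G and 4E-BP families are shared when all read classes count. With annotated transcripts only, Eif4g2 holds a mean of 95.8% and Eif4ebp1 75.8%.

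Near-identical copies touched few other members. Of 583 annotated pseudogenes with reads, 8 matched a member transcript at 90% identity or more over at least 200 nt, and together they held 51 reads in replicate 2 and 56 in replicate 1, most of them on Eif4a-ps4. Gm4366, a copy of Eef1g at 99.6% identity, held 4 reads in replicate 2 and 11 in replicate 1. Gm18867, a copy of Eif5, held 9 reads in replicate 2 and 0 in replicate 1. Both counts are small beside the reads of the parent genes.

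The read classes of TALON, the program that named the models, show how complete these reads were. Of all member reads, 77.9% in replicate 2 and 79.8% in replicate 1 matched an annotated transcript, beside 60.8% in replicate 2 and 64.2% in replicate 1 over all annotated genes. Incomplete splice matches, which hold part of an annotated chain of introns, made up 13.2% in replicate 2 and 12.45% in replicate 1, beside 9.55% in replicate 2 and 10.2% in replicate 1 over all genes. Models with an unannotated splice site made up 2.59% in replicate 2 and 2.29% in replicate 1, against 22.3% in replicate 2 and 18.9% in replicate 1 over all genes, and this difference was not tested. The shares over all genes are shares of reads and not those of a typical gene. Abundant genes weigh most in them, as the 6 muscle fibre markers, at 127700 CPM in replicate 2 and 156900 CPM in replicate 1. Nearly all incomplete reads lacked the 5′ part: 12.6% in replicate 2 and 11.2% in replicate 1 of member reads were of that kind, and 0.262% in replicate 2 and 0.485% in replicate 1 lacked the 3′ part.

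Among incomplete splice matches, reads without the 5′ part were concentrated in few genes. Over the 47 members with at least 100 reads their share had a median of 4.45%, and 6 genes had a mean above 25%. Eif4g3 had 70.15% in replicate 2 (61.6 to 77.7) and 64.6% in replicate 1 (54.2 to 74.1), and Eif4g1 had 60.85% in replicate 2 (56.5 to 65.1) and 62.8% in replicate 1 (57.5 to 67.9). Eef2 followed with 31.6% in replicate 2 and 30.35% in replicate 1, Eif3c with 28.4% in replicate 2 and 36.5% in replicate 1, Eif3i with 25.6% in replicate 2 and 27.6% in replicate 1, and Eif4b with 30.1% in replicate 2 and 20.7% in replicate 1. By this count length alone did not order the genes: Spearman's rho between this share and transcript length was 0.215 in replicate 2 and 0.354 in replicate 1 over the 47 genes, as a description. Unspliced reads at the 3′ end, of the genomic class, were not counted. Eif4ebp2 (5784 nt) thus entered at 0%, with 82.2% in replicate 2 and 84.8% in replicate 1 of its reads in that class. Eif1ax, with an annotated transcript of 5172 nt, had 1.77% in replicate 2 and 2.27% in replicate 1.

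**Figure D4:**
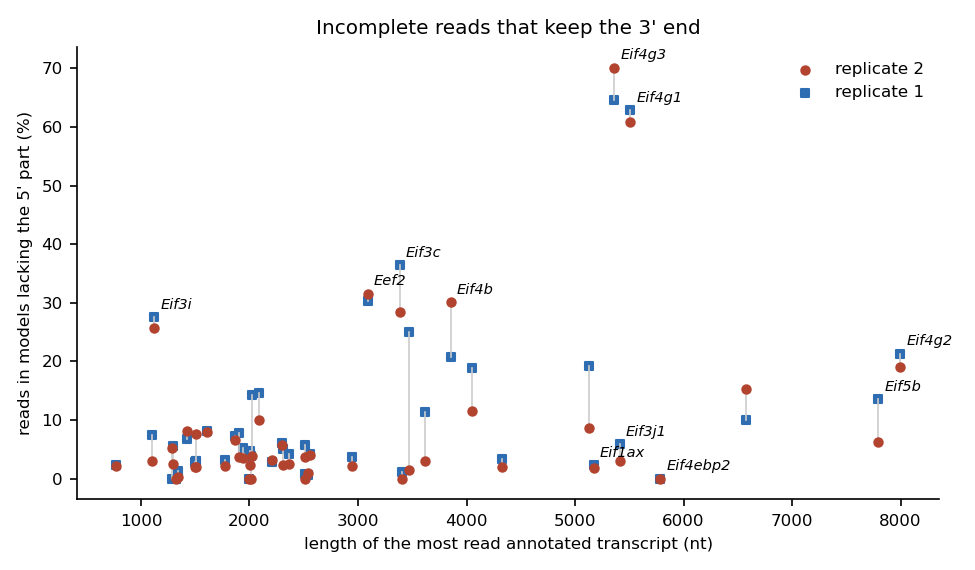
Share of a gene's reads in models that keep the 3′ end and lack the 5′ part, in percent, against the length in nucleotides of the most read annotated transcript, for the 47 members with at least 100 reads (circles, replicate 2; squares, replicate 1; lines join the 2 libraries). Only incomplete splice matches count here, and by this count Eif4g3 and Eif4g1 stand above 60% in both libraries, far above other genes of like length. Unspliced models at the 3′ end are left out. Eif4ebp2 therefore stands at 0%, although such models held 82.2% in replicate 2 and 84.8% in replicate 1 of its reads.

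The most read form of a gene was usually 1 annotated transcript. Of 51 members with at least 20 reads in each library, 46 had an annotated transcript as the most read form, its share had a median of 85.9% over the 51, against 77.0% over all genes, and 50 members (98.0%, all genes 92.5%) had the same most read form in both libraries. Eif4e2 was the exception, and its most read form over both libraries held 24.6% in replicate 2 and 25% in replicate 1. Unannotated models of 1 exon were pooled as 1 form per gene, so Eif4ebp2 counted as having the same form by this rule. Eif1-201 held 98.5% in replicate 2 and 97.3% in replicate 1 of Eif1 reads, and Eif2s2-201 97.4% in replicate 2 and 94.7% in replicate 1 of Eif2s2 reads. Eif3b-201 held 94.5% in replicate 2 and 90.8% in replicate 1, Eef1g-201 92.3% in replicate 2 and 91.5% in replicate 1, and Eif2b5-201 90.9% in replicate 2 and 86.4% in replicate 1.

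Reads outside the most read form of other well-read genes included incomplete, genomic and unannotated models as well as other annotated transcripts. Eif4g2-213 held 77.3% in replicate 2 and 73.2% in replicate 1, Eef1a2-201 80.2% in replicate 2 and 73.8% in replicate 1, and Eef2-201 64.0% in replicate 2 and 62.6% in replicate 1. With annotated transcripts only, each of these forms held 100% of its gene. Without incomplete and genomic reads they held means of 95.8%, 89.5% and 97.8%. Eif5-202 held 77.3% in replicate 2 and 69.1% in replicate 1, with Eif5-212 at 4.43% in replicate 2 and 5.78% in replicate 1. Eif5a-210 held 87.1% in replicate 2 and 83.1% in replicate 1, with Eif5a-201, which has an additional untranslated exon of 94 nt, at 5.645% in replicate 2 and 7.28% in replicate 1. The helicase gene Eif4a2 was split between Eif4a2-201, at 63.35% in replicate 2 and 65.2% in replicate 1, and Eif4a2-203, at 24.5% in replicate 2 and 23.0% in replicate 1. Eif4h-201 held 75.6% in replicate 2 and 75.2% in replicate 1, and Eif4h-205, which has the exon of 60 nt printed above, held 14.7% in replicate 2 and 14.95% in replicate 1. Eif4b-201, Eif3j1-201, Eif3f-201, Eif1ax-201, Eif3e-201 and Eif3a-201 were the most read forms of their genes, at means of 65.2%, 87.7%, 93.9%, 93.1%, 95.85% and 82.3%.

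The share of the most read form differed between the libraries in 3 of 46 members tested (Fisher's exact test with Benjamini-Hochberg adjustment over 4055 genes), where 2.34% of all genes differed. Eif5b-201 took 77 of 95 reads in replicate 2 (81.05%) and 29 of 59 in replicate 1 (49.15%) (adjusted p = 0.00695). Part of the remainder was a model of 5 exons and 1295 nt that ends early, with 6 reads in replicate 2 and 14 in replicate 1. Eif3m-201 took 64 of 76 reads in replicate 2 (84.2%) and 112 of 114 in replicate 1 (98.25%) (adjusted p = 0.0235), and Eif3a-201 took 257 of 290 reads in replicate 2 (88.6%) and 111 of 146 in replicate 1 (76.0%) (adjusted p = 0.0498). Eif3a lost its call when the most read form was taken from replicate 1 alone. That left 2 of 46 members, beside 82 of 4019 genes. For Eif3a, reads without the 5′ part made up 8.62% in replicate 2 and 19.2% in replicate 1. With annotated transcripts alone, 0 of 45 members were called, beside 19 of 3503 genes. Without incomplete and genomic reads, 0 of 46 members were called, beside 30 of 3807 genes. The members at an unadjusted p under 0.05 numbered 0 and 1 at these settings.

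In 5 members the most read form was not an annotated transcript. Eef1d, Eif4g1 and Eif4enif1 had a new combination of annotated splice sites, and Eif4g3 an incomplete match. That of Eif4g1 held only 13.0% in replicate 2 and 8.93% in replicate 1 of its reads. Annotated transcripts of Eif4g1 held less: Eif4g1-210 had 3.10% in replicate 2 and 2.02% in replicate 1, and Eif4g1-205 had 2.91% in replicate 2 and 2.31% in replicate 1. In Eif4ebp2, 82.2% in replicate 2 and 84.8% in replicate 1 of reads were unspliced models of 1 exon at the 3′ end of the gene, 2339 nt in replicate 2 and 2489 nt in replicate 1, inside the long last exon of the annotated transcript. Eif4ebp2-201 itself had 19 reads in replicate 2 and 21 in replicate 1. With annotated transcripts only, Eif4ebp1 therefore held a mean of 75.8% of 4E-BP reads in place of 35.6%.

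Unannotated spliced models numbered 443 over both libraries, and 64 were found in both by their chain of introns, holding 336 reads in replicate 2 and 304 in replicate 1. The 10 most read of them are given here. The first was a 9-exon form of Eef1d, with 51 reads in replicate 2 and 68 in replicate 1 (57.95% and 49.6% of the gene in replicates 2 and 1), which differs from Eef1d-218 by keeping the exon of 57 nt printed above. Eif4g1 had 2 forms of 33 exons with the intron chr16:20672877-20673598 joined to an annotated remainder, at 67 reads in replicate 2 and 31 in replicate 1, and at 29 reads in replicate 2 and 15 in replicate 1. They differ from each other by the 3 bases of the acceptor printed above. Eif4enif1 had a form with another donor of its first intron, chr11:3202993-3203629, in untranslated sequence, at 33 reads in replicate 2 and 12 in replicate 1.

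Eef1a2 had a model that starts at another first exon and splices by chr2:181155482-181155948, at 21 reads in replicate 2 and 21 in replicate 1, which is 6.60% of the gene in replicate 2 and 6.105% in replicate 1. Eif4e had a 4-exon model at 10 reads in replicate 2 and 17 in replicate 1, and Eif2ak1 a 16-exon model with an added intron at 6 reads in replicate 2 and 8 in replicate 1. Eif4g1 had 2 more models of 27 exons that begin within the gene with the intron chr16:20678257-20678581. That nearest to Eif4g1-202 had 13 reads in replicate 2 and 9 in replicate 1. That nearest to Eif4g1-210 had 10 reads in replicate 2 and 5 in replicate 1. The last of the 10, in Eif4e2, had 3 reads in replicate 2 and 9 in replicate 1. All 10 were seen in both libraries, and whether they are translated was not measured.

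Splice choices inside the genes were counted on reads that span them. Over 47 members, 12 had at least 1 choice whose rarer form reached 10 reads, 25 choices in all: 14 cassette exons, 8 alternative acceptors and 3 alternative donors. For 0 of the 25 were the 95% intervals of the libraries apart. Choices of other genes were not counted, so no share over all genes can stand beside this. Where few reads span a choice, the intervals are wide and overlap easily. The exon of 114 nt of Eif4g2 (chr7:111076280-111076393) was kept in 801 of 919 spanning reads in replicate 2 (87.2%, interval 84.8 to 89.3) and 626 of 704 in replicate 1 (88.9%, interval 86.4 to 91.1). The exon of 60 nt of Eif4h (chr5:134624441-134624500) was kept in 23 of 146 spanning reads in replicate 2 (15.75%, interval 10.3 to 22.7) and 32 of 200 in replicate 1 (16%, interval 11.2 to 21.8). Most Eif4h reads thus skipped their exon, while most Eif4g2 reads kept theirs.

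In Eef1d, the exon of 57 nt was kept in 61 of 84 spanning reads in replicate 2 (72.6%, interval 61.8 to 81.8) and 82 of 127 in replicate 1 (64.6%, interval 55.6 to 72.85), and the exon of 72 nt beside it (chr15:75900691-75900762) in 76 of 82 spanning reads in replicate 2 (92.7%, interval 84.75 to 97.3) and 116 of 127 in replicate 1 (91.3%, interval 85.0 to 95.6). The exon of 72 nt of Eif4enif1 was kept in 54 of 63 spanning reads in replicate 2 (85.7%, interval 74.6 to 93.25) and 26 of 29 in replicate 1 (89.7%, interval 72.65 to 97.8). Both Eef1d exons were thus kept by most reads in each library, as was that of Eif4enif1. The exon of 135 nt of the kinase gene Eef2k was kept in 31 of 40 spanning reads in replicate 2 (77.5%, interval 61.55 to 89.2) and 38 of 44 in replicate 1 (86.4%, interval 72.65 to 94.8). In Eif4g3 the exon of 33 nt was kept in 12 of 17 spanning reads in replicate 2 (70.6%, interval 44.0 to 89.7) and 6 of 18 in replicate 1 (33.3%, interval 13.3 to 59.0), the widest difference among these exons, although its intervals overlap at this depth. Eef2k also had an unannotated exon of 39 nt (chr7:120868546-120868584) in 6 of 36 spanning reads in replicate 2 (16.7%, interval 6.37 to 32.8) and 9 of 38 in replicate 1 (23.7%, interval 11.4 to 40.2).

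The choice of 3 bases at the acceptor was counted in the same way. Eif4g1 reads kept the CAG in 168 of 448 spanning reads in replicate 2 (37.5%, interval 33.0 to 42.2) and 88 of 245 in replicate 1 (35.9%, interval 29.9 to 42.3). Eif4a2 reads kept it in 87 of 304 spanning reads in replicate 2 (28.6%, interval 23.6 to 34.1) and 104 of 408 in replicate 1 (25.5%, interval 21.3 to 30.0), which is what separates Eif4a2-203 from Eif4a2-201 at this intron. Eif4g3 reads kept it in 14 of 25 spanning reads in replicate 2 (56.0%, interval 34.9 to 75.6) and 18 of 23 in replicate 1 (78.3%, interval 56.3 to 92.5). The fourth such choice, in Eef1d (chr15:75901253-75901255), kept the bases in 77 of 81 spanning reads in replicate 2 (95.1%, interval 87.8 to 98.6) and 116 of 123 in replicate 1 (94.3%, interval 88.6 to 97.7). Eif4a2 and Eif4g1 thus gave mixtures of both forms, with the shorter form the commoner.

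Other choices changed untranslated, partly coding or, in Eif4g3, coding sequence. The untranslated exon of 94 nt of Eif5a was kept in 27 of 360 spanning reads in replicate 2 (7.50%, interval 5 to 10.7) and 57 of 660 in replicate 1 (8.64%, interval 6.61 to 11.0). In Eif5, 139 nt at an acceptor in the 5′ untranslated region were kept in 351 of 370 spanning reads in replicate 2 (94.9%, interval 92.1 to 96.9) and 302 of 325 in replicate 1 (92.9%, interval 89.6 to 95.5). The exon of 79 nt of Eif4e2 was kept in 35 of 43 spanning reads in replicate 2 (81.4%, interval 66.6 to 91.6) and 38 of 50 in replicate 1 (76.0%, interval 61.8 to 86.9), and the exon of 111 nt of Eif4a2 in 5 of 306 spanning reads in replicate 2 (1.63%, interval 0.533 to 3.77) and 13 of 410 in replicate 1 (3.17%, interval 1.70 to 5.36). Eif4g3 had an acceptor choice of 57 nt, annotated as coding, kept in 52 of 125 spanning reads in replicate 2 (41.6%, interval 32.85 to 50.75) and 39 of 80 in replicate 1 (48.75%, interval 37.4 to 60.2).

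**Figure D5:**
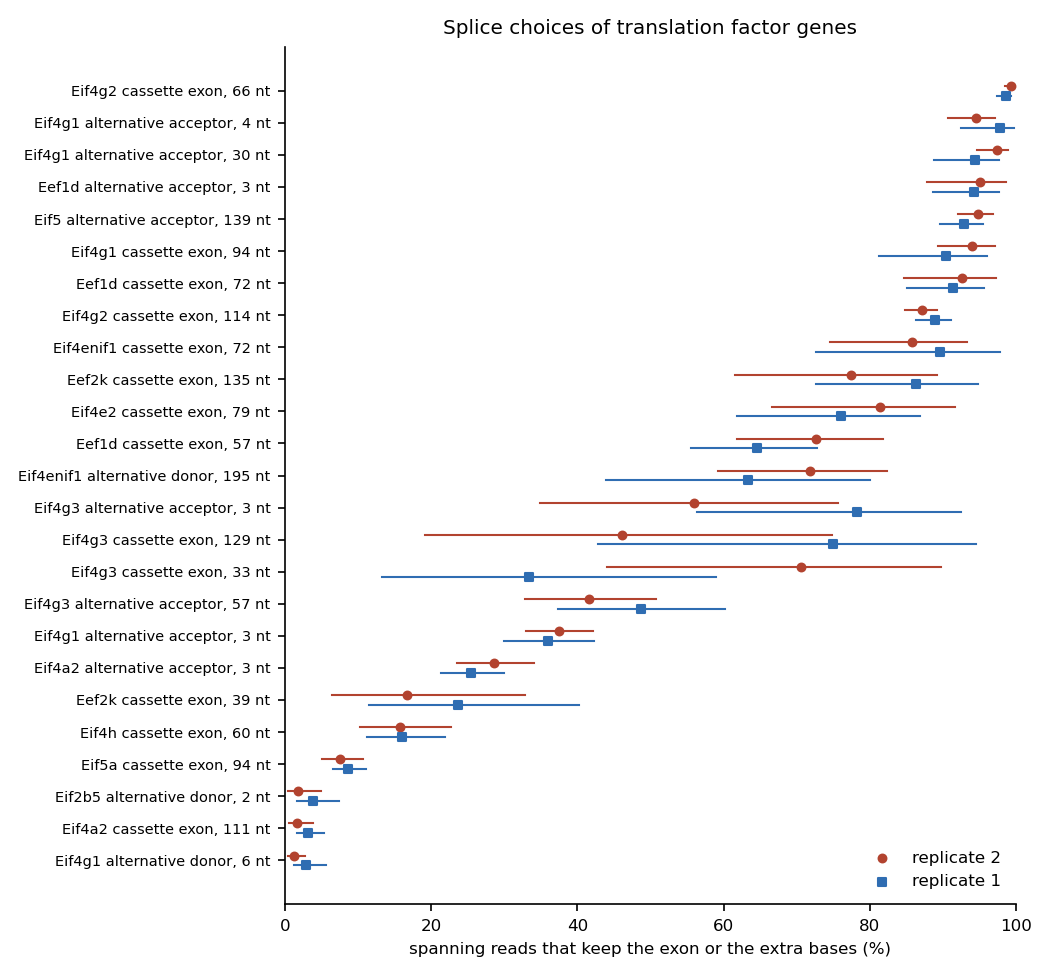
Share of spanning reads that keep the exon or the extra bases, in percent, for the 25 splice choices of translation factor genes (circles, replicate 2; squares, replicate 1; lines, exact 95% Clopper-Pearson intervals). The choices run from nearly always kept (Eif4g2, 66 nt) to nearly always skipped (Eif4g1, 6 nt), and for each choice the intervals of the libraries overlap. Intervals are wide where few reads span, as for the Eif4g3 exon of 33 nt, and choices of other genes were not counted.

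Genes that work with these factors were counted from named lists. None of the 7 release and recycling genes tested, the 10 poly(A)-binding and eIF4F partner genes, the 7 genes of hypusine and diphthamide synthesis, the 9 mitochondrial translation factors or the 20 cytosolic tRNA synthetases was called in either direction, with list medians of 0.52, 0.23, 0.29, -0.17 and 0.15 beside 0.19 over all genes, of which 10.3% were called. Of the 5 genes tested on the list of eIF2 phosphatase and stress response, 3 were called higher in replicate 2, beside 8.24% of all genes tested, with a list median of 1.37. Ppp1r15a, which brings the phosphatase to eIF2, had 83.5 CPM in replicate 2 against 31.8 CPM in replicate 1 (log2 ratio 1.37, Fisher's exact test, adjusted p = 3.05e-07). Ddit3, a transcription factor of the stress response, had 18.75 CPM in replicate 2 against 3.975 CPM in replicate 1 (log2 ratio 1.99, adjusted p = 0.00199). Chac1, a glutathione-degrading enzyme of the same response, had 69.9 CPM in replicate 2 against 15.9 CPM in replicate 1 (log2 ratio 2.07, adjusted p = 8.08e-11). Atf4, which is translated preferentially when eIF2 is phosphorylated, had 36.65 CPM in replicate 2 against 29.15 CPM in replicate 1 with a log2 ratio of 0.32, and Ppp1r15b had 14.5 CPM in replicate 2 against 9.275 CPM in replicate 1. Slow fibre, endothelial and smooth muscle markers moved in the same direction, and their part in these calls was not tested.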

How the data were processed

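The authors deposited raw counts, whole numbers of reads for each transcript model, in a table for each library. The README files that came with the samples name a filtered alignment to mm10 and GENCODE M21, and per the file headers the models were named by TALON. Aligner, platform and filters: not given in the sources used here. Models of the libraries were matched by their introns, counts were summed per gene over every read class, and library totals include spike-in reads.

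A gene entered the comparison from 10 reads over the pair of libraries upwards. Fisher's exact test (two-sided) set its reads against the other reads of the library, with Benjamini-Hochberg adjustment across the whole table; a call needed an adjusted p under 0.05 and a 2-fold difference. Ratios divide replicate 2 by replicate 1 after adding 1 CPM, which shrinks those of low genes. Only counting error enters this test, since duplicate copies of a molecule cannot be recognised, and no replicate checks the differences. The isoform test needed 20 reads per library and an annotated most read form. Intervals are Clopper-Pearson at 95%, and 3 reads were the floor for a count of 0. Splice choices needed 10 reads of the rarer form. edgeR 4.0.16 and DESeq2 1.42.0 (R 4.3.3) gave alternative scalings; Python 3.11.15, scipy 1.17.1, numpy 2.4.6 and pandas 2.3.3 did the rest, checked on simulated data.

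The members and gene lists were chosen with earlier results of these data known. Members reaching 100 reads in sum, and called members, have values by library; isoforms are given for members reaching 100 reads in both libraries, and unannotated spliced models for the 10 most read that both libraries hold. Other genes named were chosen after their values were seen. Marker lists are those counted in the text. Start-site sequences and proteins were not used here, and allele of origin was not assigned.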

Additional observations from a re-analysis of the deposited data

How the results depend on the processing

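No paired analysis was possible because there was 1 group. Under TMM scaling or DESeq2 size factors 2 members were called lower in place of 1, as with the deeper library thinned, since Eef1akmt1 joined Eif2b3. With that library thinned, 165 of 8732 genes were called lower. Those scalings shift all log2 ratios by -0.19 and move the calls over all genes to 446 higher and 376 lower (TMM), against 744 and 184. A 1.5-fold minimum gave 11 of 58 members, 6 higher and 5 lower, beside 1150 higher and 438 lower of 9032 genes. Centring on length left 1 in all, 0 higher, beside 343 higher and 131 lower of 8625 genes, and turned Eif4g2 to -0.024. With annotated transcripts only, 0 members were lower, beside 101 of 7229 genes, and Eef1akmt1 stood at 0.027. The member share of reads became 0.9% with annotated transcripts only and 0.671% without incomplete and genomic reads. By the same pair of settings Eif4g2 held 95.8% and 79.6% of eIF4G reads, Eif4ebp1 75.8% and 76.3% of 4E-BP reads, and 0 and 0 members differed in isoform use. Over all genes, 19 of 3503 and 30 of 3807 differed in isoform use at these settings. Without incomplete and genomic reads Eef1a2 held 92.4% of eEF1A reads. The cause was not tested. Removing ERCC reads from the totals, an alternative chosen after seeing the data, left the 4 calls. Read depth limits the genes under 10 reads, and 2 libraries of 1 group give no test of the muscle itself.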
